A study of Mus musculus with 6 samples.

Results

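The Sox genes encode transcription factors that share the HMG box, a DNA-binding domain like that of the testis-determining factor Sry. Messenger RNA levels of 10 of them, Sox4, Sox5, Sox6, Sox8, Sox9, Sox11, Sox12, Sox13, Sox17 and Sox18, were measured by RNA-seq in interstitial cells of the fetal mouse testis and were taken by symbol from a table of 24413 genes. The cells, called W-EGFP, were taken at E16.5 from mice of the FLE-EGFP line, in which a fetal Leydig enhancer of Nr5a1 drives EGFP, and 10000 of them went into each library. In the treated group the cells were held for 1 hour in 0.5 µM SAG, an agonist of the Hedgehog signal transducer Smoothened. In the control group they were held for the same time in DMSO, the vehicle. Each group has 3 libraries. The column names of both groups also carry the element siCnt, which the labels do not explain, so whether all cells had received a control siRNA is not known. The number of animals and whether the libraries of a group came from separate animals or cultures are not stated in the labels. The p-values therefore speak only of the spread among these 6 libraries, which may be technical. SAG replicate 3 stands apart from the rest in several measures, and where a value rests on it the value without it or each SAG library is given.

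Sox proteins bind short DNA sites in the minor groove, bend the DNA and usually work with partner factors. They are sorted into groups by the likeness of their HMG boxes. The SoxC factors Sox4, Sox11 and Sox12 act in progenitor cells of many tissues, and the SoxE factors Sox8 and Sox9 drive the Sertoli cell fate of the testis, Sox9 also cartilage. The SoxD factors Sox5, Sox6 and Sox13 lack a transactivation domain of their own, and the SoxF factors Sox17 and Sox18 act in blood and lymphatic vessels. In the fetal testis, Sertoli cells secrete a Hedgehog ligand to which interstitial cells respond.

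Of the 10 Sox genes, 9 had reads and 1, Sox17, had 0 reads in all 6 libraries. Values are the deposited signal, which is CPM (reads scaled to a common library size) with a scaling factor inside, and each error after ± is the SD of the 3 libraries of a group (n = 3). All 9 detected genes passed the filter of a mean signal of at least 1 over the 6 libraries and were tested. Sox18, at 0.361 in DMSO and 2.65 with SAG, passed it only through the group where it is high, so its place in the counts below adds no support; the other 8 genes gave 2 higher and 2 lower. With SAG, Sox12, Sox13 and Sox18 rose and Sox8 and Sox11 fell, while Sox4, Sox5, Sox6 and Sox9 did not pass the test. The test was limma on log2(signal + 1) with a Benjamini-Hochberg adjusted p under 0.05 over the 12550 genes tested. Of all those genes 12.9% were called higher and 16.6% lower, or 29.6% in either direction, beside 3 higher and 2 lower of the 9 Sox genes. The median log2 fold change was -0.05 over the 9 Sox genes (0.10 with scaling by library total, -0.13 without SAG replicate 3) and -0.03 over all genes tested.

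**Figure D1:**
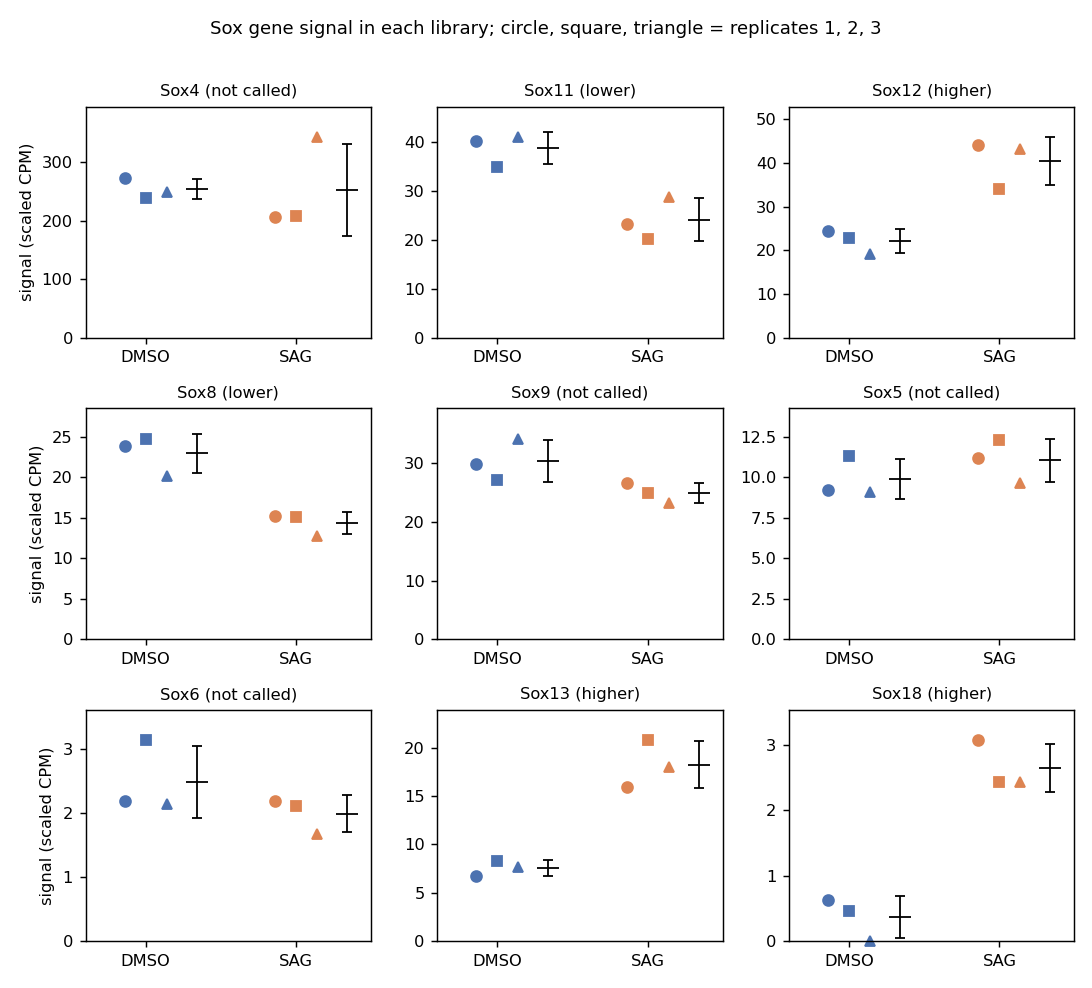
Signal (scaled CPM, linear axes from 0) of the 9 detected Sox genes in each of 3 DMSO libraries (blue) and 3 SAG libraries (orange), with mean ± SD in black. Sox12, Sox13 and Sox18 sit higher in every SAG library, Sox8, Sox9 and Sox11 sit lower in every SAG library, and SAG replicate 3 stands above all others for Sox4.

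The promoter stretches of the called genes that have an entry in the RefSeq promoter table (build GRCm38.p6) are shown because these genes moved in opposite directions. Of the 10 genes, 7 had an entry. All 4 stretches are on the minus strand and are printed 5′ to 3′, from 250 bases before the RefSeq start down to that start or to a start further upstream in GENCODE M21, which shortened the Sox12 stretch to 233 bases and the Sox13 stretch to 85. Sox12 and Sox13 rose. Sox8 and Sox11 fell. They lie at chr2:152398064-152398296, chr1:133424378-133424462, chr17:25570687-25570936 and chr12:27342719-27342968. Capitals mark matches to the GC box (GGGCGG) and the CCAAT box (CCAAT), on either strand.
Sox12: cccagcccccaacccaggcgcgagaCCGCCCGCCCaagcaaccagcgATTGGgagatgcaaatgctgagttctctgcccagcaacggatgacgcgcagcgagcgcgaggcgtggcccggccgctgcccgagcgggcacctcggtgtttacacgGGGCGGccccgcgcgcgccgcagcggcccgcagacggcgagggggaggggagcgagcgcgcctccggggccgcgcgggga
Sox13: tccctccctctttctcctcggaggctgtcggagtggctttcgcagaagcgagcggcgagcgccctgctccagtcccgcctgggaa
Sox8: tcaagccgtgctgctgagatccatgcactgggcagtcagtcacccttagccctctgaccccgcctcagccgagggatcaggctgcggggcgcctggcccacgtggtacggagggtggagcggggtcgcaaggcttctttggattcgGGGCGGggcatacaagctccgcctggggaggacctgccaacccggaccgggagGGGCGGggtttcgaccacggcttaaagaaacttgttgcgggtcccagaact
Sox11: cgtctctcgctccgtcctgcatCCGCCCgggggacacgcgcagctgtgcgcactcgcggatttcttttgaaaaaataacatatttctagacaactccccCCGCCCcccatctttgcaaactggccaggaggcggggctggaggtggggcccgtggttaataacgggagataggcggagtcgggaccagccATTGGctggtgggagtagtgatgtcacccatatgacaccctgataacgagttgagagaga

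Over the whole 250 bases, the promoter was 74.4% G and C for Sox12, 72.4% for Sox13, 65.6% for Sox8 and 58.0% for Sox11. The median was 52.4% over the 32851 promoters of the table. Of the uncalled genes with an entry, Sox4 stood at 50.8%, Sox5 at 39.6% and the 6 entries of Sox6 at 34% to 60.8%. The Sox5 window and all Sox6 windows but the most upstream lie wholly within the gene as GENCODE places it. Their values are thus not of the same kind as those of the called genes. For Sox13, 165 of the 250 bases lie within the gene as GENCODE places it. The Sox8 stretch overlaps exons of the antisense transcript 2810468N07Rik. Sox12 held 35 CG dinucleotides and Sox13 31, Sox8 18 and Sox11 17, and the median promoter held 6. The GC box was found 3 times in Sox12, where a pair of matches overlaps, 2 times each in Sox8 and Sox11 and 0 times in Sox13, and 32.7% of all promoters hold at least 1. The CCAAT box was found in Sox11 and Sox12, and in 33.8% of all promoters. None of the 4 held the Gli site GACCACCCA, which 0.225% of promoters hold, the TATA box TATAAA (12.4%) or the Sox site AACAAT (9.42%). Each motif was searched on both strands, none of these motifs contains another, and a match is a description of letters only.

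Sox13, a SoxD gene with a role in T cell development, had the smallest p of the 10. Its signal was 6.71, 8.27 and 7.67 in DMSO replicates 1 to 3 and 15.9, 20.8 and 18.0 in SAG replicates 1 to 3. Every SAG library lay above every DMSO library. The group means were 7.55 ± 0.789 and 18.2 ± 2.43, 2.41-fold higher with SAG (log2 fold change 1.17, SE 0.16; limma, Benjamini-Hochberg adjusted p = 7.9e-04). Without SAG replicate 3, the library that stands apart, the log2 fold change was also 1.17. On GRCm38 the gene covers chromosome 1 from 133382303 to 133424377 on the minus strand in 14 exon blocks.

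Sox12, a SoxC gene, has its whole transcript in 1 exon on chromosome 2 (152393611 to 152398063, minus strand). Its signal was 24.4, 22.9 and 19.1 in DMSO and 44.0, 34.1 and 43.3 with SAG. The groups did not overlap. The group means were 22.1 ± 2.75 and 40.5 ± 5.53, 1.83-fold higher with SAG (log2 fold change 0.84, SE 0.15; limma, Benjamini-Hochberg adjusted p = 0.0030), with a log2 fold change of 0.79 without SAG replicate 3.

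Sox18, a regulator of vessel and lymphatic endothelium, was close to the limit of detection. It had 15, 10 and 0 reads in the DMSO libraries and 28, 23 and 19 reads in the SAG libraries, which are 2.67 times shallower on average. Its signal was thus 0.621, 0.462 and 0 in DMSO and 3.08, 2.44 and 2.44 with SAG, so the groups did not overlap and the mean went from 0.361 ± 0.323 to 2.65 ± 0.368. Pooled over each group this is 0.374 CPM (95% exact Poisson interval 0.242 to 0.553) in DMSO and 2.80 (2.18 to 3.54) with SAG, intervals that cover counting error only. Sox18 rose 7.34-fold by the ratio of mean signals, and 11.5-fold without DMSO replicate 1, 8.54-fold without DMSO replicate 2 and 4.89-fold without DMSO replicate 3. The log2 fold change on the log2(signal + 1) scale was 1.45 (SE 0.26; limma, Benjamini-Hochberg adjusted p = 0.0033), which understates the change of so low a gene: with a pseudocount of 0.1 it was 2.99, and edgeR on the recovered reads gave 2.81. The gene spans bases 181669836 to 181671640 of chromosome 2 (minus strand).

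Markers of endothelial cells did not rise as a list beside Sox18. Of 14 markers 6 were tested, of which 0 were called higher and 1 lower, with a median log2 fold change of 0.09. Over all genes tested 12.9% were called higher and 16.6% lower. Their summed signal ran from 211 to 215 in DMSO and from 157 to 222 with SAG. Cldn5, a tight junction gene of endothelium, had 0 reads in every library, and Pecam1, a defining surface marker, had 33 reads in all DMSO libraries together and 8 in all SAG libraries. The marker that fell was Flt1, a VEGF receptor gene, from 89.1 ± 2.89 to 44.8 ± 10.5. Cdh5 (VE-cadherin) was at 27.8 ± 3.15 and 38.6 ± 8.94 and did not pass (limma, Benjamini-Hochberg adjusted p = 0.0930). Cdh5 passed without SAG replicate 3, where 2 of the markers were called higher and 1 lower. It also passed with scaling by library total or in DESeq2, where 1 was higher and 1 lower. Emcn went the other way, with a log2 fold change of -0.51, and did not pass (limma, Benjamini-Hochberg adjusted p = 0.0899). Emcn was called lower in limma without trend, where 0 markers were higher and 2 lower. Of the remaining tested markers, Eng (log2 fold change 0.25), Kdr (0.11) and Egfl7 (0.06) were not called. Eng was the other marker called higher without SAG replicate 3. In bulk samples, a change in the number of cells of a type and a change in RNA per cell cannot be told apart.

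Sox8, the SoxE gene that acts alongside Sox9 in Sertoli cells, fell. Its signal was 23.9, 24.8 and 20.2 in DMSO and 15.2, 15.1 and 12.7 with SAG, so each SAG library was under each DMSO library. The mean was 22.9 ± 2.43 and 14.3 ± 1.41, 1.60-fold lower with SAG (log2 fold change -0.64, SE 0.14; limma, Benjamini-Hochberg adjusted p = 0.0087). The call was lost without DMSO replicate 2, where the limma Benjamini-Hochberg adjusted p was 0.0536. Sox8 (chromosome 17, 25565892 to 25570686, minus strand) has an antisense neighbour: 329 bases of its exons overlap those of the antisense transcript 2810468N07Rik. That transcript was at 3.31 ± 0.0621 in DMSO and 3.03 ± 1.14 with SAG. The strand setting of the counting is not given in the sources used here, so reads of the pair may be shared.

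Sox11, a SoxC gene of neural and mesenchymal progenitors with 1 exon on chromosome 12 (27334264 to 27342574, minus strand), fell by a like amount. It was at 40.2, 34.9 and 41.0 in DMSO and at 23.3, 20.1 and 28.8 with SAG, with no overlap between groups. The mean was 38.7 ± 3.32 and 24.1 ± 4.37, 1.61-fold lower (log2 fold change -0.67, SE 0.15; limma, Benjamini-Hochberg adjusted p = 0.0089). Without DMSO replicate 3 the limma Benjamini-Hochberg adjusted p was 0.0511 and the call was lost, and without SAG replicate 3 the log2 fold change was -0.81.

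Sox4, the most abundant Sox gene here and the third SoxC member, turned on 1 library. Its signal was 272, 239 and 250 in DMSO and 206, 209 and 344 in SAG replicates 1 to 3. SAG replicates 1 and 2 lay under every DMSO library and SAG replicate 3 above all of them. The means were 254 ± 17.2 and 253 ± 78.8, and the gene was not called (log2 fold change -0.05, SE 0.18; limma, Benjamini-Hochberg adjusted p = 0.87). Without SAG replicate 3 it was called lower, with a log2 fold change of -0.29 (limma, Benjamini-Hochberg adjusted p = 0.0016). Rn45s, a ribosomal RNA gene, took 1.67% of the reads in SAG replicate 3 and 0.326% to 0.360% elsewhere, and the part of this in the Sox4 value was not tested. The direction of the value for all 6 libraries turned with scaling by library total (0.10) or upper quartile (0.01) and in edgeR (0.03) and DESeq2 (0.03). Sox4 has 1 exon, on chromosome 13 at 28948919 to 28953713 (minus strand), and GENCODE places the transcript Gm26735 on the other strand across 2616 of its bases.

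Sox9, the Sertoli cell and cartilage factor on chromosome 11 (112782224 to 112787760, plus strand), had all SAG libraries below the lowest DMSO library but did not pass the test. Its signal was 29.8, 27.1 and 34.2 in DMSO and 26.6, 24.9 and 23.2 with SAG, with means of 30.4 ± 3.56 and 24.9 ± 1.67 (log2 fold change -0.27, SE 0.13; limma, Benjamini-Hochberg adjusted p = 0.14). In all, 6 of the 9 tested Sox genes had groups that did not overlap, 3 with SAG higher and 3 with SAG lower. Of all genes tested 48.0% had such groups, 21.2% with SAG higher and 26.8% with SAG lower. Over 18 other settings Sox9 stayed uncalled, with log2 fold changes from -0.35 to -0.13.

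Sox5 and Sox6, paired cofactors of Sox9 in cartilage, were low and overlapped between groups. Sox5 (chromosome 6, 143828425 to 144781977, minus strand) was at 9.23, 11.3 and 9.08 in DMSO and 11.2, 12.3 and 9.63 with SAG (log2 fold change 0.15, SE 0.16; limma, Benjamini-Hochberg adjusted p = 0.52). Sox6 (chromosome 7, 115470872 to 116038796, minus strand) was at 2.19, 3.14 and 2.14 in DMSO and 2.20, 2.12 and 1.67 with SAG (log2 fold change -0.21, SE 0.21; limma, Benjamini-Hochberg adjusted p = 0.48). Only 159 DMSO reads and 53 SAG reads stood behind Sox6, so a small difference was not detectable at this depth.

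**Figure D2:**
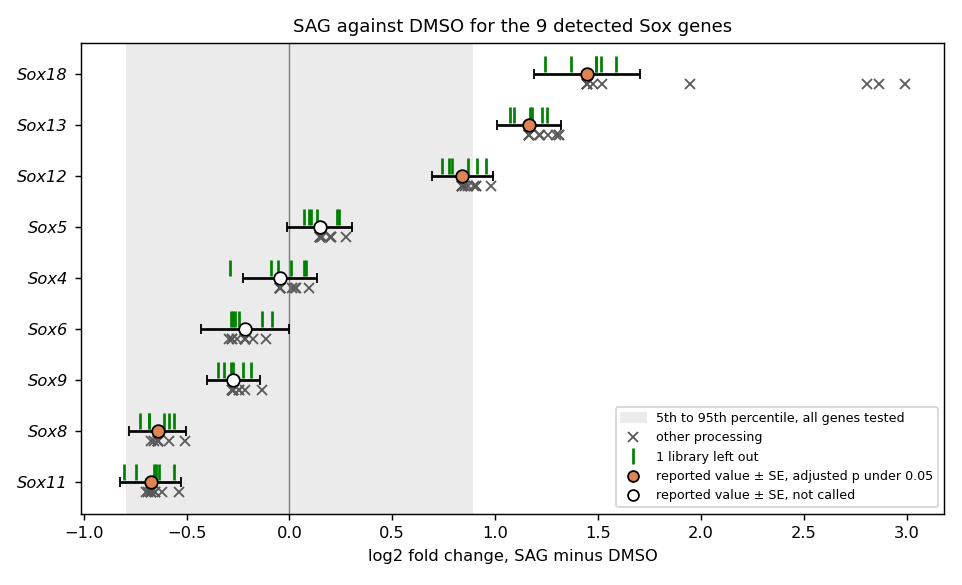
Log2 fold change (SAG minus DMSO, on log2(signal + 1)) of the 9 detected Sox genes with SE, filled where called, beside the values from other processing (crosses) and with 1 library left out (bars), over the 5th to 95th percentile of all genes tested (grey, -0.79 to 0.89). Sox12, Sox13 and Sox18 stay right of 0, Sox8 and Sox11 left of 0, and the Sox4 values fall on both sides.

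Sox17, the endoderm and arterial SoxF gene (chromosome 1, 4490931 to 4497354, minus strand), was not detected. Its 0 reads allow at most 0.0449 CPM over the 66766734 DMSO reads and 0.120 CPM over the 25017663 SAG reads, taking 3 reads as the limit that a count of 0 allows. Outside the 10 genes, Sry, Sox1, Sox2, Sox3, Sox7, Sox10 and Sox14 also had 0 reads in every library. Sox7 is the third SoxF gene, so Sox18 was the sole SoxF gene with reads. Sox15, Sox21 and Sox30 had reads but were under the filter: Sox30 had 37 in DMSO and 18 with SAG, Sox15 had 22 and 9, and Sox21 had 8 and 0. At the depth of the SAG libraries the Sox21 difference is within the limit that a count of 0 allows.

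Levels were compared between genes as signal per kb of exon (union of GENCODE M21 exons). Sox4 was highest in both groups, at 52.9 ± 3.59 per kb in DMSO and 52.7 ± 16.4 with SAG, where replicates 1 to 3 stood at 43.0, 43.5 and 71.7. In DMSO it was followed by Sox8 (7.36 ± 0.778 per kb) and Sox9 (7.35 ± 0.860), whose libraries overlapped, and then by Sox12 (4.97 ± 0.618) and Sox11 (4.66 ± 0.399), which overlapped too. Below them came Sox13 at 1.75 ± 0.183 per kb, Sox5 at 0.687 ± 0.0872, Sox18 at 0.223 ± 0.199 and Sox6 at 0.168 ± 0.0380, the last pair overlapping. With SAG the order became Sox4, Sox12, Sox9, Sox8, Sox13, Sox11, Sox18, Sox5 and Sox6, and in it only Sox8 (4.60 ± 0.451 per kb) and Sox13 (4.23 ± 0.563) were neighbours whose libraries overlapped. Sox12 stood at 9.09 ± 1.24 per kb and Sox11 at 2.90 ± 0.526. The exon unions of Sox5 (14.4 kb) and Sox6 (14.8 kb) join many isoforms, so their levels per kb are lower than those of a single isoform would be.

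**Figure D3:**
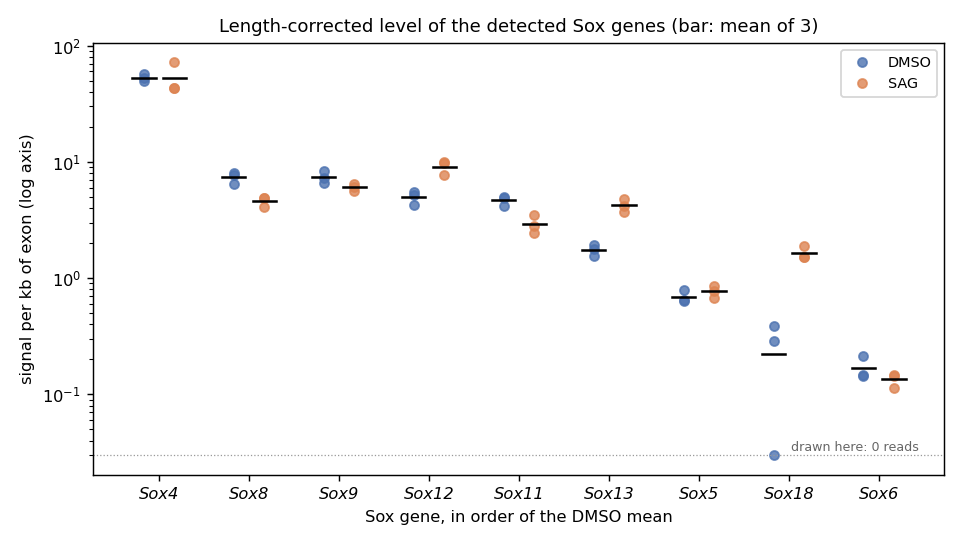
Level of the 9 detected Sox genes as signal per kb of exon (log axis) in 3 DMSO (blue) and 3 SAG libraries (orange), with the mean as a bar; the DMSO library without Sox18 reads is drawn on the dotted line. Sox4 stands at 52.9 per kb in DMSO, above Sox8 and Sox9 at 7.36 and 7.35, and Sox12 and Sox11 lie side by side in DMSO and apart with SAG.

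Within the groups of related Sox factors the balance differed. Sox12 made up 7.95% ± 0.884 of the summed SoxC level per kb in DMSO and 14.5% ± 3.17 with SAG, and Sox11 7.45% ± 0.515 and 4.54% ± 0.479, without overlap between the groups for either. The Sox12 share was 17.8%, 14.3% and 11.5% in SAG replicates 1 to 3, so SAG replicate 3 lay nearest to DMSO. Sox13 made up 67.2% ± 2.09 of the SoxD level in DMSO and 82.3% ± 2.18 with SAG, from 65.7% to 69.6% and from 79.9% to 84.2%. The summed SoxE level, of Sox8 and Sox9, was 14.7 ± 0.179 per kb in DMSO and 10.6 ± 0.825 with SAG. The share of Sox8 in it overlapped between groups (50.1% ± 5.56 and 43.3% ± 1.32). These shares are descriptions and were not tested.

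A list of 23 genes covered the network around Sox9 in sex determination, the ovarian pathway included. Of these genes 16 were tested, 3 rose and 3 fell, with a median log2 fold change of -0.06. These counts are near the shares over all genes tested (12.9% higher and 16.6% lower) and are no result about the list. Fgfr2, the receptor for Fgf9, rose 1.63-fold, from 56.5 ± 1.55 to 92.4 ± 4.92, and Wnt4, a ligand of the ovarian pathway, rose 2.73-fold, from 8.31 ± 1.23 to 22.7 ± 5.20. Fst (follistatin) fell from 6.21 ± 2.28 to 1.27 ± 0.995 (log2 fold change -1.72, from -2.54 to -1.32 over the other settings) and the homeobox gene Emx2 from 16.8 ± 3.68 to 6.60 ± 3.07, with 8.68, 8.05 and 3.08 in SAG replicates 1 to 3. Nr5a1, which activates Sox9 together with Sry, was at 119 ± 4.08 and 104 ± 4.86 and was not called. Without SAG replicate 3, Nr5a1 was called lower (limma, Benjamini-Hochberg adjusted p = 0.0344). The call of Emx2 was lost without DMSO replicate 1 or 3. Without SAG replicate 3 the list had 5 higher and 5 lower, without DMSO replicate 1 it had 3 and 1, without DMSO replicate 2 it had 2 and 2, without DMSO replicate 3 it had 2 and 1, and without SAG replicate 1 it had 3 and 2.

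Cells that normally carry Sox9 and Sox8 were checked by Sertoli markers. Of 14 markers 4 were tested and 0 were called (limma, Benjamini-Hochberg, and also 0 in edgeR and DESeq2), with a median log2 fold change of -0.06. Beside this, 12.9% of all genes tested were called higher and 16.6% lower. Without SAG replicate 3 the median was -0.18 and 0 were called. The log2 fold changes of the 4 were 0.55 for Cldn11, -0.05 for Aard, -0.08 for Inhbb and -0.13 for Dhh. Summed marker signal was 43.1 to 44.5 in DMSO and 37.5 to 55.7 with SAG, most of it from Inhbb at 28.1 ± 1.04 and 27.1 ± 6.64. The defining Sertoli hormone gene Amh had 13 reads in all DMSO libraries and 20 in all SAG libraries (signal 0.221 ± 0.159 and 0.801 ± 0.641, under the filter), and the receptor gene Fshr 3 and 1.

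Cartilage genes, direct or indirect targets of Sox9, Sox5 and Sox6, were partly below the filter. Of 20 listed, 18 were in the table and 10 were tested, and 2 rose and 4 fell, beside 12.9% higher and 16.6% lower over all genes tested. The list's median log2 fold change was -0.00, and it was -0.88 over the 5 genes left by a filter at 5, of which 1 rose and 4 fell. Col11a2 (log2 fold change 1.18), 1 of the 2 that rose, was so low that the filter at 5 left it untested. Its place in the counts therefore adds no support. Acan, the cartilage proteoglycan aggrecan, fell from 457 ± 42.4 to 160 ± 14.8, 2.86-fold lower (log2 fold change -1.51, SE 0.11; limma, Benjamini-Hochberg adjusted p = 3.4e-05). Chst11, a chondroitin sulfotransferase gene, was 2.91-fold lower, at 220 ± 4.74 and 75.8 ± 11.6, and Col11a1 was 1.82-fold lower, at 1847 ± 97.5 and 1014 ± 172. Col27a1 rose 2.56-fold, from 21.5 ± 0.708 to 55.0 ± 10.3. Col2a1, the defining cartilage collagen and a direct Sox9 target, had 6 reads in all DMSO libraries and 2 with SAG, and Matn1 0 and 1. Without SAG replicate 1 the list had 4 higher and 4 lower, without DMSO replicate 3 it had 2 and 3, and without SAG replicate 3 it had 2 and 5 with a median of -0.48.

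In a short list of SoxC targets and neuronal genes, 5 of 8 were tested, 0 rose and 3 fell, with a median log2 fold change of -0.54, beside 16.6% lower over all genes tested. The numbers called were the same in every other setting, but with no filter 8 were tested and the median was -0.22. Map2, a microtubule protein of neurons, was 2.18-fold lower (447 ± 23.2 in DMSO and 205 ± 26.2 with SAG), the adhesion gene Ncam1 2.20-fold lower (528 ± 16.7 and 240 ± 46.1) and Tubb3, a tubulin gene bound by Sox11, 1.46-fold lower (118 ± 6.48 and 80.9 ± 5.97). Tead2, a SoxC target in mesenchyme, was at 110 ± 2.58 and 102 ± 6.12 and was not called.

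Among partners and targets of SoxF factors, 10 of 14 were tested, 2 rose and 2 fell, with a median log2 fold change of -0.07. This is close to the shares over all genes tested (12.9% and 16.6%) and is no result about the list. Efnb2, an arterial ephrin, was 1.89-fold lower, at 188 ± 10.4 and 99.0 ± 9.32, and the nuclear receptor gene Nr2f2, which interstitial cells also express, rose 1.44-fold, from 150 ± 7.25 to 216 ± 17.6. Rbpj (30.8 ± 2.23 and 21.5 ± 3.67) and Mef2c (26.5 ± 1.10 and 35.1 ± 2.84) were called with limma Benjamini-Hochberg adjusted p = 0.0289 and 0.0318. The Rbpj call was lost without any 1 DMSO library and with scaling by library total, and the Mef2c call without any 1 library except SAG replicate 3 and with a replicate block. The counts of higher and lower genes were 1 and 1 without any 1 of the DMSO libraries, 1 and 2 without SAG replicate 1 or 2, and 2 and 3 without SAG replicate 3.

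**Figure D4:**
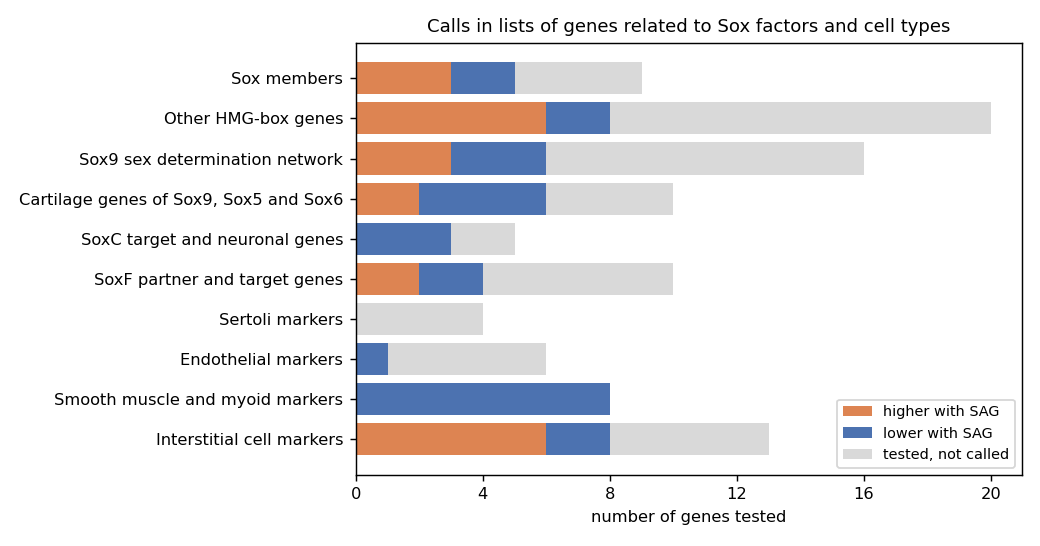
Number of tested genes called higher (orange), lower (blue) or not called (grey) with SAG in the Sox genes and related lists. The Sox genes had 3 higher and 2 lower of 9, Sertoli markers had none called of 4, and smooth muscle markers had 8 lower of 8. Over all genes tested 12.9% were called higher and 16.6% lower.

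Facts of the libraries touch all these values. DMSO libraries held 18486396 to 25491259 reads and SAG libraries 7694479 to 8804335. The treatment check, Gli1, went from 0.625 ± 0.270 to 36.6 ± 8.46. Of 14 interstitial cell markers all had reads in each of the 6 libraries, with Nr2f2 at 150 ± 7.25 in DMSO and Pdgfra at 34.7 ± 2.36 in DMSO and 220 ± 8.69 with SAG. Of these, 13 were tested, 6 rose and 2 fell, and without SAG replicate 3 the counts were 8 and 4. These and the counts of the lists below stand beside 12.9% called higher and 16.6% lower over all genes tested. All 8 smooth muscle markers fell, from a summed signal of 22517 to 23488 in DMSO to 14133 to 15798 with SAG. Of the 8, 5 were called without DMSO replicate 1, 2 or 3 or SAG replicate 1. The number called was also 5 with scaling by library total and in limma without trend. It was 6 with upper quartile scaling and in edgeR, and 3 with no filter. Of 5 fetal Leydig markers tested 2 rose (1 without any 1 DMSO library), with a median log2 fold change of 0.55. The 2 were Scarb1 (log2 fold change 0.72) and Hsd3b1 (2.69, from 1.67 to 5.98 over the other settings). Hsd3b1 lost its call without any 1 DMSO library and its value moved widely, so its place in the count adds no support. Without SAG replicate 3 the counts were 2 higher and 1 lower, the steroid transport gene Star being the lower, and the median was -0.20. With no filter it was -0.18. Germ cell markers had 0 called of 2 tested and macrophage markers 0 of 1, and no erythroid or glial marker passed the filter. The part of these shifts in the Sox values was not tested.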

How the data were processed

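RNA-seq libraries of 3 DMSO and 3 SAG samples were used. Per the labels' protocols, RNA was taken with an RNeasy Micro kit and libraries kept strand information. The submitters' processing notes list edgeR 2.2.1, featureCounts 2.0.0, STAR and Trim Galore 0.6.4, with mm10 (GRCm38) as the build. The sources used here do not give the annotation, filters or strand setting. A table of normalized signal, named CPM and listed by gene symbol, was deposited by the authors. Its values were whole multiples of the signal of 1 read in 100% of cases (tolerance 0.01), so reads were recovered. TMM factors from these reads differed from the factors inside the deposited signal by at most 0.0316%. The 92 spike-in rows, at most 0.0157% of a library's reads, were left out.

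From the signal, log2(signal + 1) was tested with limma 3.58.1 (eBayes with trend, R 4.3.3) for genes whose mean signal reached 1, with group as the only term and Benjamini-Hochberg adjustment over all of them. The limma step was tested on simulated data, where it recovered 74.5% of 2-fold and 23.2% of 1.5-fold changes. Of the calls in that simulation 7.69% were false. A gene that was not called may thus have changed by such an amount. Coordinates and exon lengths are from GENCODE M21 (GRCm38) and promoters from RefSeq (GRCm38.p6). Alternatives were other pseudocounts, filters, scalings and limma settings, a replicate block, edgeR 4.0.16, DESeq2 1.42.0, a threshold of 0.01 and each library left out. All Sox genes were named, and of other lists up to 4 genes by smallest p, with further markers chosen after their values were seen. The members and lists were chosen with earlier results of these data known.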

Additional observations from a re-analysis of the deposited data

How the results depend on the processing

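Over 18 other settings the same 3 Sox genes, Sox12, Sox13 and Sox18, were called higher in 17; a stricter filter (mean signal 5) left Sox18 untested. The same 2, Sox8 and Sox11, were called lower in 15. The exceptions left out DMSO replicate 2, DMSO replicate 3 or SAG replicate 3. With each library left out in turn, 4 to 6 Sox genes were called, and 1987 to 5836 genes of all, against 3709. An adjusted p under 0.01 gave 1837 calls over all genes and the same 5 Sox genes. The Sox4 log2 fold change, -0.05 as reported and not called, was 0.10 with scaling by library total, 0.011 with upper quartile scaling, 0.029 in edgeR and 0.032 in DESeq2, and -0.29 to 0.080 with each library left out; the cause was not tested. Scaling by library total moved the median of all genes from -0.03 to 0.10 and the calls from 1625 higher and 2084 lower to 2477 and 1259, while Sox8 (-0.51) and Sox11 (-0.54) were still called lower. With that scaling the medians of the Sox genes (0.10) and of the sex determination (0.07), cartilage (0.09), Sertoli (0.07) and SoxF partner (0.12) lists turned from below to above 0.

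Replicate numbers did not pair the libraries. The deviations of same-numbered libraries correlated at most 0.0332, and not every library correlated best with its own number. A replicate block gave 3525 calls over all genes and the same 5 Sox calls. Depth limits Sox6 and Sox18, and Sox17 is known only as under the limit of detection.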

Other observations

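Other HMG-box proteins, relatives of the Sox factors that package or remodel chromatin or act in Wnt signalling, moved in both directions. Of 23 listed genes 20 were tested, 6 rose and 2 fell, with a median log2 fold change of 0.08, beside 12.9% higher and 16.6% lower over all genes tested. Hmgb2, a DNA-bending protein of dividing cells, rose 1.98-fold, with 39.2, 33.2 and 35.1 in DMSO and 67.6, 70.1 and 75.1 with SAG (log2 fold change 0.97, SE 0.11; limma, Benjamini-Hochberg adjusted p = 3.5e-04). Hbp1, a repressor of cell cycle genes, rose 1.42-fold, from 54.6 ± 1.95 to 77.6 ± 2.56. Pbrm1, a subunit of a SWI/SNF remodelling complex, was 1.51-fold lower, at 155 ± 5.39 and 102 ± 13.8, and Bbx 1.57-fold lower, at 44.3 ± 1.51 and 28.2 ± 4.16. These 4 calls held in every other setting at the same threshold. The list had 4 higher genes without DMSO replicate 1 or 2 and 3 without DMSO replicate 3. It had 6 higher and 3 lower genes when SAG replicate 3 was omitted.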
